A study of Saccharomyces cerevisiae BY4741 with 16 samples.

Results

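The histone marks H3K4me3 and H3K36me3, which are trimethylated lysines 4 and 36 of histone H3, were compared gene by gene in growing budding yeast, *Saccharomyces cerevisiae*, in the libraries labelled 0 min of rapamycin, the start of the series. A gene was a member when it had a value in all 8 columns of the deposited table, and 5218 of 5218 genes with values met that condition. The comparison used 2 of the 16 libraries of the series, 1 immunoprecipitated library per mark. There was therefore no replicate, and no p-value, standard error or test stands behind any value.

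The series followed both marks by chromatin immunoprecipitation and sequencing for 60 min after rapamycin at 1 ug/mL was used to take RNA polymerase II out of the nucleus. By the labels, every library shares the same background. Cells were of the strain BY4741 Anchor-Away, a MATa haploid carrying his3D1, leu2D0, ura3D0, tor1D1 and fpr1D and the anchor RPL13-2xFKBP12-NATMX6. They were grown in rich glucose medium at 30 degrees to mid-log phase (OD600 of 0.65), and *Schizosaccharomyces pombe* cells were added at 25% as a spike-in. The labels name no tagged polymerase subunit and do not say whether the strain is 1 clone. By the labels, the 0 min libraries come from the same engineered strain as the others, not from an unmodified one.

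H3K4me3 is deposited by the Set1 complex (COMPASS), which travels with polymerase early in transcription, and it is known for marking the starts of genes in use. H3K36me3 is deposited by Set2, which binds the tail of elongating polymerase, and it covers gene bodies, where the Rpd3S deacetylase reads it and keeps transcription from starting inside genes. Both marks thus depend on transcription, but at different stages of it.

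Levels are the deposited linear signal per gene. Whether that signal was divided by input, gene length or spike-in is not stated in the sources used here, so a level of 1 antibody cannot be set against a level of the other. Each gene was therefore placed by its percentile among the 5218 genes in each mark, and by the ratio of H3K36me3 to H3K4me3 on the log2 scale relative to the median gene. The ratio was read for the 4640 genes in which both marks reached 25% of their median (1.23 for H3K4me3 and 0.271 for H3K36me3). The 578 genes below that line comprised 210 low in H3K4me3 only, 191 low in H3K36me3 only and 177 low in both.

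The labels were first set against genes that define the cell type and the medium. *STE2*, the pheromone receptor of MATa cells, had H3K4me3 of 6.05 and H3K36me3 of 2.15, at percentiles 80.7 and 85.3. *STE3*, the receptor of the opposite mating type, had 0.263 and 0.102, at percentiles 1.69 and 1.21, and *SAG1*, its agglutinin gene, was low in H3K4me3 (0.717, at percentile 5.42) but not in H3K36me3 (1.302, at percentile 60.04). The short a-specific genes *MFA1* and *MFA2*, which encode the pheromone, and *AGA2*, an agglutinin subunit, were low in both marks in spite of the label, with H3K36me3 of 0.310, 0.225 and 0.162. *FPR1*, labelled as deleted, still had H3K4me3 of 2.26 and H3K36me3 of 1.21, at percentiles 12.5 and 56.0, and 1.34 and 0.0335 at 20 min. *HIS3*, labelled with the allele his3D1, had 6.81 and 2.73. The labels do not give the extent of these alleles. The source of the signal, and whether each library held the labelled strain, was not tested. Of the genes chosen for growth on glucose, *PMA1*, *TDH3*, *HXT1* and *PDC1* had H3K36me3 at percentiles 83.5, 80.7, 82.5 and 88.4. Their H3K4me3 was at 54.3, 43.8, 41.3 and 26.4, and *HXT3* was below the median in both marks, at 32.9 in H3K4me3 and 47.6 in H3K36me3.

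Between the 10th and the 90th percentile, H3K36me3 spread over a wider range of levels than H3K4me3. H3K4me3 had a median of 4.91, a 10th percentile of 1.76 and a 90th of 6.57, which is 3.73-fold. H3K36me3 had a median of 1.08, a 10th percentile of 0.332 and a 90th of 2.45, which is 7.37-fold. Above the median most genes lay close together in H3K4me3 (the 75th percentile was 5.80 and the highest gene 9.75), while H3K36me3 went on to 9.03. The lower tail differed. The 5th and 1st percentiles were 0.666 and 0.202 in H3K4me3, and 0.222 and 0.0910 in H3K36me3. At both, H3K4me3 lay farther below its median, as a fold, than H3K36me3 did.

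Genes of chromosome XI stood apart in both marks, and results that rest on them are given with and without them. The median gene of chromosome XI had H3K4me3 of 3.41 and H3K36me3 of 0.874. On the other 15 chromosomes the medians ran from 4.64 to 5.26 and from 0.981 to 1.35.

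Genes with much of 1 mark mostly had much of the other. The Spearman correlation between the marks was 0.695 over the 4640 genes and 0.704 without chromosome XI. The points share 1 strain, 1 time and whatever depends on the gene itself, such as mappability, and genes are not independent replicates. Split into quintiles by each mark, 2409 of 5218 genes (46.2%) were in the same quintile of both and 4453 (85.3%) in the same or the next. The highest quintile of both marks held 622 genes (11.9%), and the lowest quintile of both held 667 (12.8%). The plot of both levels shows this diagonal, and also a tail of genes in which H3K4me3 was low over a wide range of H3K36me3.

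**Figure D1:**
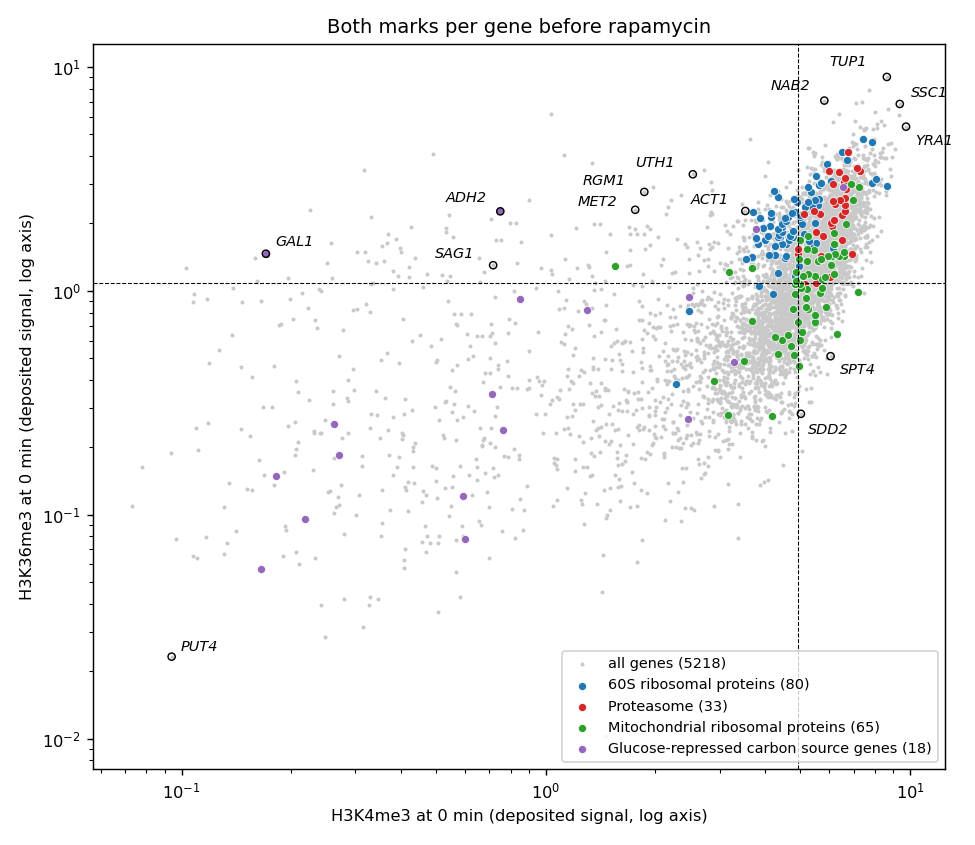
Level of H3K4me3 (x axis, log) against H3K36me3 (y axis, log) at 0 min in deposited signal, 1 point per gene for 5218 genes, with 4 gene lists coloured and 14 genes circled and named; dashed lines mark the medians of 4.91 and 1.08. Points of the 60S ribosomal proteins lie mostly above those of the mitochondrial ribosomal proteins at like H3K4me3, and most glucose-repressed genes lie at the lower left.

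The genes highest in both marks, ranked by the lower of their percentiles, encoded proteins of several kinds. *SSC1*, the mitochondrial Hsp70, had H3K4me3 of 9.37 and H3K36me3 of 6.84. *MSB2*, a mucin-like sensor of the filamentous growth pathway, had 8.70 and 6.47, and *NOP1*, the nucleolar fibrillarin, 9.30 and 6.13. *TUP1*, the general corepressor, had 8.64 and the highest H3K36me3 of any gene, 9.03. *SKY1*, a kinase of SR-type RNA-binding proteins, and *YRA1*, an adaptor for mRNA export, completed the set. *YRA1* had the highest H3K4me3 of any gene, 9.75, with H3K36me3 of 5.41. After *YRA1*, *SSC1* and *NOP1*, the next in H3K4me3 were *WHI3*, an RNA-binding protein that restrains the G1 cyclin mRNA of *CLN3*, at 9.07, *CLN3* itself at 8.95 and *MIX17*, a mitochondrial intermembrane space protein, at 8.89. Next in H3K36me3 among genes in the gene table were *NAB2*, the nuclear poly(A)-binding protein, at 7.08, *BUD23*, a methyltransferase of ribosomal RNA, at 6.99, and *SIS1*, an Hsp40 cochaperone, at 6.88. YDR433W, which that table does not hold, had 7.92.

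The genes lowest in both marks were at a small part of the median in each. *PUT4*, the proline permease, which rich medium represses, had H3K4me3 of 0.0938 and H3K36me3 of 0.0232. *GIP1*, a meiosis-specific phosphatase subunit, had 0.133 and 0.0746, and *SFC1*, a succinate-fumarate carrier used on nonfermentable carbon, 0.165 and 0.0572. YLR112W, *DPA10* and YFL012W completed the 6, with H3K4me3 between 0.107 and 0.131. At such levels the depth, which is unknown, limits what the ratio means, and none is read for them.

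The ratio lay within 2-fold of the median gene at most genes. It was 2-fold or more above it at 365 of 4640 genes (7.87%) and 2-fold or more below it at 311 (6.7%). *SUR1* and *ERG6* lay just inside and outside the upper bound, at 1.0008 and 1.0000, and *PIC2* and *RTT109* just inside and outside the lower one, at -1.0008 and -0.9999. The quartiles of the ratio ran from -0.46 to 0.48. Without chromosome XI the counts were 323 and 287. They depended on the filter, with 220 above and 60 below when both marks had to reach 50% of their median.

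Above the lowest decile of H3K4me3, the ratio was higher where H3K4me3 was high. The median ratio was -0.05 in decile 1 of H3K4me3, -0.45 in decile 2, -0.17 in decile 5 and 0.57 in decile 10, and the median H3K36me3 in them 0.542, 0.645, 1.04 and 2.50. For that reason the excess of H3K36me3 over genes of the same decile of H3K4me3 was also computed for the gene lists, an alternative chosen after seeing the data. Among genes past the filter, the 10th to 90th percentile range was 5.16-fold in H3K36me3 and 2.07-fold in H3K4me3. Because the marks went together, that difference in spread can by itself make the ratio rise with H3K4me3. Whether the rise holds anything more was not tested. The filter can also have shaped decile 1, where the 10th percentile of H3K36me3, 0.318, lay close to the level that the filter asks for. Most genes 2-fold above the median gene were high in H3K36me3, as 302 of the 365 were in its highest quintile, while 81 were in the lowest quintile of H3K4me3 and 131 in the highest. Of the 311 below, 279 were in the lowest quintile of H3K36me3 and 47 in the lowest quintile of H3K4me3. Quintiles were taken over all genes, while the filter removed 387 genes low in H3K4me3 and 368 low in H3K36me3, with 177 low in both. The share of each quintile among genes past the filter was not computed, so no excess is read from these counts. Both marks also make up the ratio, so part of this sorting follows from its definition.

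Genes were named from the ends of the ratio only where the gene table held them and no other gene overlapped them. Among those, the 8 with the highest ratio mostly had low H3K4me3 and H3K36me3 well above the median. *RGM1*, a zinc finger protein gene on chromosome XIII, had H3K4me3 of 1.86 and H3K36me3 of 2.77, a ratio 6.15-fold above the median gene. *ALR2*, of a family of magnesium transporters, had 1.36 and 1.99 (6.05-fold), and *MCH5*, the riboflavin transporter, 1.40 and 1.98 (5.81-fold). Both were just over the H3K4me3 level that the filter asks for. *MET2*, an enzyme of methionine synthesis, had 1.76 and 2.30 (5.42-fold), *TRR2*, the mitochondrial thioredoxin reductase, 1.50 and 1.79 (4.95-fold), and *FUN19* 2.35 and 2.68 (4.75-fold). *UTH1*, a SUN family protein gene, had 2.53 and 3.32 (5.46-fold) but is on the Watson strand of chromosome XI, in a stretch whose Watson genes were low in both marks. *NAB2* was the exception among these 8, with H3K4me3 of 5.82, at percentile 75.3, and a ratio 5.12-fold above the median gene that came from H3K36me3 at percentile 99.96. Genes past the filter but outside that ranking also reached the ratio of *FUN19*, the lowest of the 8. They were YCR045W-A, at 1.338 and 3.74 the highest of all past the filter (11.4-fold), YKL145W-A, YNL097W-A and YOR309C, which the gene table does not hold, and YGR018C, which overlaps another gene.

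When both marks had to reach 50% of their median and chromosome XI was left out, highly marked genes made up most of the upper end. Under the same rule of naming, *NAB2* was then highest, followed by *HFA1*, the mitochondrial acetyl-CoA carboxylase, with H3K4me3 of 2.85 and H3K36me3 of 3.07. *TUP1*, the chaperonin subunit gene *CCT6* (6.37 and 6.17), *SIS1* (7.12 and 6.88) and *BUD23* (7.38 and 6.99) came next. In the 5 genes other than *HFA1*, both marks were above their medians.

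The 8 genes with the lowest ratio by the same rule had H3K4me3 near its median and H3K36me3 just over the level that the filter asks for, and all were in the shortest decile of gene length (519 bp or less). *SDD2* (438 bp) had H3K4me3 of 5.02 and H3K36me3 of 0.282, a ratio 4.08-fold below the median gene. *MZM1*, an assembly factor of respiratory complex III (372 bp), had 4.64 and 0.271, and *NUT2*, a Mediator subunit (474 bp), 5.34 and 0.320. *SDH7* and *COX14*, assembly factors of succinate dehydrogenase and cytochrome oxidase, had H3K36me3 of 0.288 and 0.307, and *EMC5*, of the endoplasmic reticulum membrane complex, 0.286. *BIL1* and YNL162W-A, at 231 and 219 bp, completed the set. With the filter at 50% and without chromosome XI, the lower end held longer genes, namely *GSH2*, glutathione synthetase (1476 bp, 5.79 and 0.543), *STE13* (2796 bp, 5.55 and 0.553), *ACF2*, *SCO1*, *MRPL23* and *PEX29*.

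The combination of low H3K4me3 with high H3K36me3 was more frequent than its opposite. The lowest quintile of H3K4me3 and the highest of H3K36me3 shared 39 genes. Of these, 8 were not in the gene table, so that their position and overlaps are not known here, and 5 had systematic names of chromosome XI. Among them were *LPX1*, a peroxisomal lipase (0.491 and 4.07), the aquaporin gene *AQY1* (0.225 and 2.29), the iron-regulated cell wall gene *FIT3* (0.332 and 2.14), *ADH2*, the alcohol dehydrogenase repressed by glucose (0.750 and 2.27), and *UBI4*, the stress polyubiquitin gene (2.17 and 2.36). Apart from *ADH2* these were chosen after their values were seen. The highest quintile of H3K4me3 and the lowest of H3K36me3 shared 1 gene, *SPT4*, which encodes a small subunit of the elongation factor whose partner is *SPT5*. *SPT4* (309 bp) had H3K4me3 of 6.05 and H3K36me3 of 0.511, while *SPT5* had 6.37 and 2.81. At 20 min *SPT4* had 6.04 and 0.338.

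Gene lists were then placed by the median percentile of their measured members in each mark, where 20% of all genes lie in the highest quintile of each mark. Members of a list were described only by counts and medians, and near-identical copies, such as ribosomal protein pairs, can share reads in a way that the sources used here do not state. The plot of list percentiles orders the lists by H3K4me3.

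**Figure D2:**
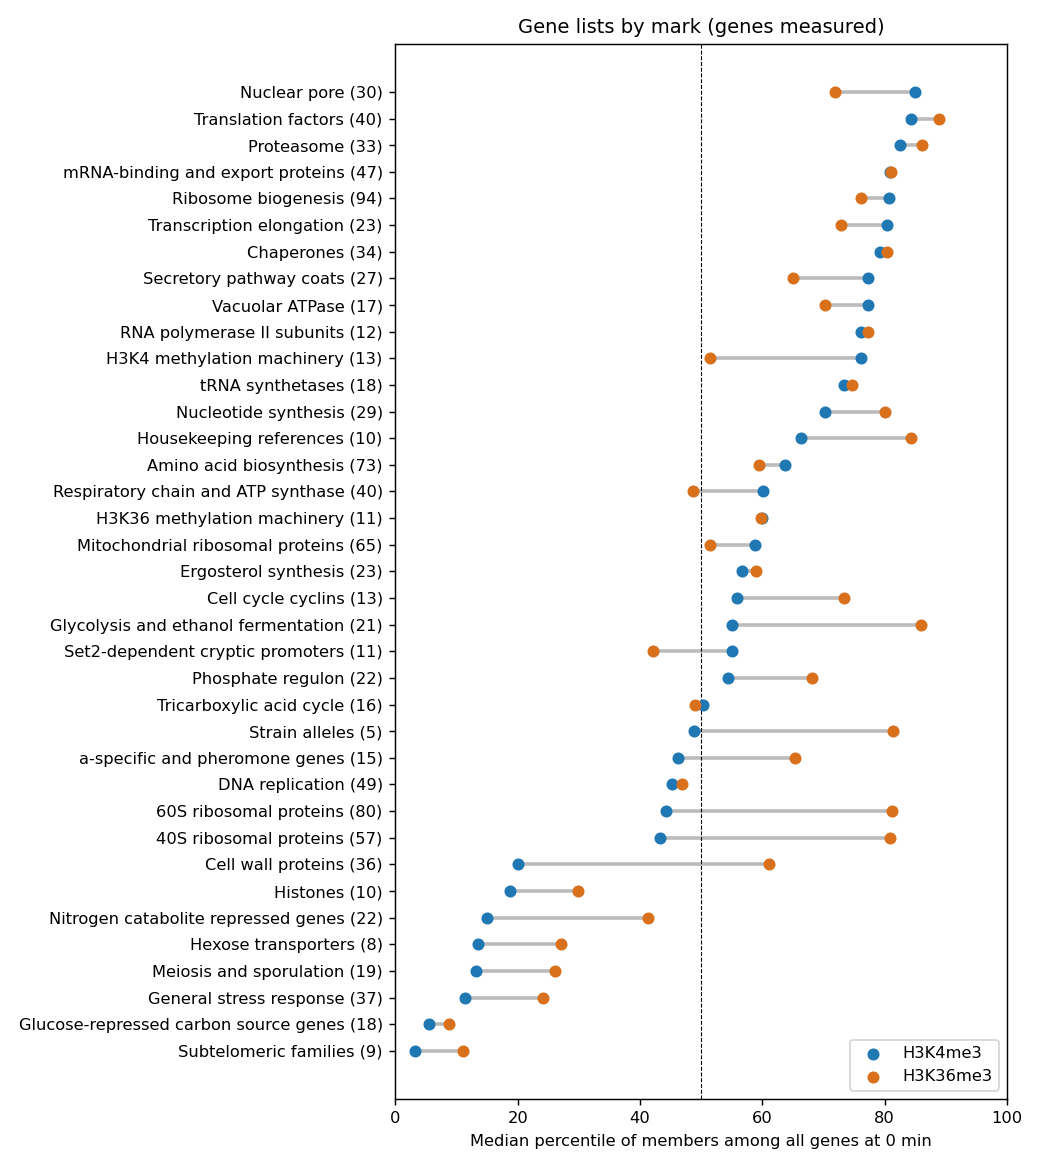
Median percentile of the members of each gene list among 5218 genes in H3K4me3 (blue) and H3K36me3 (orange) at 0 min; the number of measured genes is in brackets, a grey bar joins the marks and the dashed line is the median of all genes. Ribosomal protein lists are near 44 in H3K4me3 and near 81 in H3K36me3, and glucose-repressed genes are below 10 in both.

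Genes of the cytosolic ribosome had average H3K4me3 and high H3K36me3. The 80 measured genes of the 60S subunit had median levels of 4.70 and 1.94, at percentiles 44.2 and 81.1. Of these, 10 were in the highest quintile of H3K4me3 and 43 in that of H3K36me3. Their ratio had a median of 0.85, was positive at 78 of 80, and was 2-fold above the median gene at 21 and 2-fold below it at 0, against 7.87% and 6.7% of all genes past the filter. The 57 genes of the 40S subunit had medians of 4.65 and 1.93, at percentiles 43.2 and 80.9, and a median ratio of 0.73, positive at 53 of the 56 past the filter. Set against genes of the same decile of H3K4me3, H3K36me3 was higher by a median of 1.03 and 0.95 on the log2 scale. The levels of *RPL2A*, with the highest ratio of the 60S list, were 4.24 and 2.80, and those of *RPS8A*, with the highest of the 40S list, 7.32 and 4.81. *RPL24B* was the highest of its list in both marks (7.85 and 4.63). The shortest genes lay at the other end, as *RPL41B* (78 bp) had 2.28 and 0.383 and *RPS28A* (204 bp) 3.30 and 0.333. *RPS21A*, at 0.501 and 0.493, did not pass the filter and is on chromosome XI.

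Translation factor genes were high in both marks. Their 40 measured members had median percentiles of 84.3 and 88.8, and 18 were in the highest quintile of both, against 11.9% of all genes. *DED1*, an RNA helicase of initiation, had 7.93 and 5.26, and *GCD6*, a subunit of the exchange factor eIF2B with the lowest ratio, 6.72 and 1.29. The median ratio was 0.74, and H3K36me3 was 0.46 above genes of the same H3K4me3. Transfer RNA synthetases had percentiles of 73.4 and 74.8 and a ratio of 0.41, with *KRS1* at 6.70 and 2.83 and *TYS1* at 7.62 and 1.57. The 94 ribosome biogenesis genes had percentiles of 80.8 and 76.1. Their median ratio of 0.33 exceeded that of the median gene, but their difference of percentiles, H3K36me3 minus H3K4me3, had a median of -2.15, next to -2.11 for all genes. *NOP1* led them in both marks, and *LOC1*, with the lowest ratio, had 5.81 and 0.855.

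Glycolytic genes were split in H3K4me3 and mostly high in H3K36me3. The highest quintile held 6 of the 21 genes in H3K4me3 and 13 in H3K36me3, and the lowest held 7 and 6. The lowest quintile of both marks held 6, against 12.8% of all genes. The 21 genes of glycolysis and ethanol fermentation had median percentiles of 55.1 and 85.9, and the 17 past the filter had a median ratio of 0.85, or 0.79 without chromosome XI. *ADH1*, the fermentative alcohol dehydrogenase, had 5.49 and 4.13, *CDC19*, pyruvate kinase, 7.99 and 3.72, and *PDC1*, pyruvate decarboxylase, 3.84 and 2.32. Isoenzyme genes known to be low on glucose were low here in both marks, with *PDC6* at 0.111 and 0.194 and *HXK1* at 0.285 and 0.332. *GLK1*, glucokinase, had 3.20 and 0.552, and its region overlaps 1 other gene.

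Proteasome and chaperone genes were high in both marks, with wide differences inside 1 complex. The 33 proteasome genes had median percentiles of 82.5 and 86.2, and 18 of them were in the highest quintile of both, against 11.9% of all genes. Their ratio had a median of 0.62 and was positive at 29 of 33, from *PRE6* of the core particle (6.74 and 4.16) to *RPN12* of the lid (6.03 and 1.15). The 34 chaperone genes had percentiles of 79.3 and 80.4 and a median ratio of 0.46. *CCT6* of the cytosolic chaperonin had the highest ratio of the list, with H3K4me3 of 6.37 and H3K36me3 of 6.17. The other subunits of that complex are not given, apart from *CCT3* with 7.82 and 1.35, chosen after its value was seen. *SSA3*, a stress-induced Hsp70 gene chosen in the same way, had 0.257 and 1.63.

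Lists of the histone methylation and transcription machinery differed in how the marks ranked. The 13 genes of H3K4 methylation, of the H2B ubiquitination it needs and of its removal had median percentiles of 76.2 and 51.5, and the 12 past the filter had a median ratio of -0.22. Within the list, *LGE1* of the ubiquitination step had 6.47 and 3.93, *SET1*, the methyltransferase, 6.44 and 1.40, and *SDC1*, a COMPASS subunit, 4.33 and 0.574. The 11 genes of H3K36 methylation, its removal and its readers had percentiles of 59.9 and 59.8 and a ratio of -0.02. *SET2* itself had 5.68 and 2.79 and *IOC4*, a chromatin remodeller subunit, 5.66 and 0.793, so that genes with equal H3K4me3 differed widely in H3K36me3. Transcription elongation genes had percentiles of 80.4 and 72.8, and their ratio of 0.18 turned to a percentile difference of -3.16. The 12 RNA polymerase II subunit genes had percentiles of 76.2 and 77.3 and a ratio of 0.27. Relative to genes of the same decile of length their ratio was 0.51. It turned to -0.17 against genes of the same H3K4me3 and to a percentile difference of -8.14. *RPO21*, the largest subunit (5202 bp), had 8.28 and 3.97, and *RPB11*, a small one (363 bp), 4.18 and 0.375. The 11 measured genes known to start transcription internally without Set2 or Spt6 had a median ratio of -0.25 and percentiles of 55.1 and 42.1, with *FLO8* at 5.36 and 2.04 and *STE11* at 4.14 and 0.587.

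**Figure D3:**
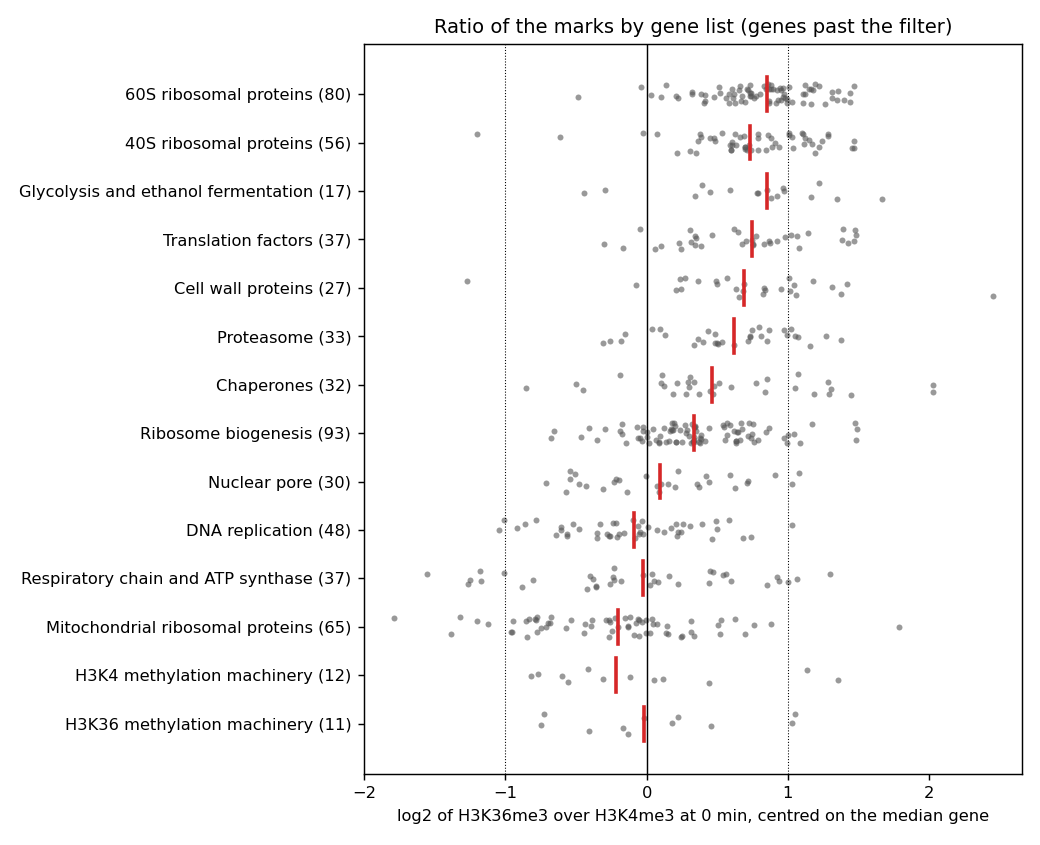
Log2 ratio of H3K36me3 to H3K4me3 relative to the median gene (x axis) for members of 14 gene lists past the filter, 1 point per gene, with the list median as a red bar; the solid line is the median gene and the dotted lines are 2-fold. Nearly all 60S points lie right of the solid line (78 of 80), and 20 of 65 mitochondrial ribosomal protein points do.

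Mitochondrial ribosomal protein genes contrasted with the cytosolic ones. Their 65 members had median percentiles of 58.8 in H3K4me3 and 51.4 in H3K36me3, and a median ratio of -0.20, positive at 20 of 65. The highest quintile held 16 of them in H3K4me3 and 4 in H3K36me3. *MRP20* had 7.22 and 2.90, *MRPL23* 6.29 and 0.640, and *MRPL44*, with the lowest ratio, 4.17 and 0.277. The highest ratio belonged to *MRP17* (1.55 and 1.29), which is on chromosome XI, and the median without that chromosome was -0.18. Against genes of the same decile of H3K4me3, their H3K36me3 had a median of -0.32 on the log2 scale, where the 60S list had 1.03. These genes were short, with a median of 654 bp. Relative to genes of the same decile of length their median ratio was -0.11, where the 60S list had 0.87. Respiratory chain and ATP synthase genes had percentiles of 60.1 and 48.7 and a ratio of -0.02. They ran from *QCR6* (5.27 and 3.08) and *ATP1* (6.90 and 3.26) to *ATP15*, a small ATP synthase subunit (189 bp), at 3.78 and 0.296.

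Nuclear pore genes had the highest median percentile of H3K4me3 among the lists, 85.1, and 71.8 in H3K36me3. Their ratio of 0.09 was near the median gene and turned to -0.12 against genes of the same H3K4me3, with *NUP57* at 8.38 and 4.19 and *SEH1* at 5.49 and 0.787. Secretory coat genes had percentiles of 77.3 and 65.1. Among the 17 vacuolar ATPase genes, with percentiles of 77.2 and 70.2, *VMA1* had 7.42 and 2.76 and *VMA10* 5.46 and 0.511. DNA replication genes were close to the median in both, at 45.2 and 46.8, with *CDC6* at 6.80 and 2.69. So were the tricarboxylic acid cycle genes, with median levels of 4.93 and 1.06. Amino acid biosynthesis genes had 63.7 and 59.4, with *ILV5* of branched-chain synthesis at 7.95 and 4.77 and *HIS2* at 4.57 and 0.505. Nucleotide synthesis genes had 70.3 and 80.1, with *URA5* at 8.14 and 3.78. Ergosterol genes had 56.8 and 59.0, the phosphate regulon 54.5 and 68.1 and the cyclin genes 55.9 and 73.4.

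The median cell wall gene was low in H3K4me3 and not in H3K36me3, but the list was split. Their 36 members had median levels of 3.30 and 1.33, at percentiles 20.1 and 61.1, and 33.3 and 66.3 without chromosome XI. The lowest quintile of H3K4me3 held 18 of them and that of H3K36me3 held 8. The highest quintile held 9 in H3K4me3 and 10 in H3K36me3, and 8 were in that of both (22.2%, against 11.9% of all genes). The 27 past the filter had a median ratio of 0.69. *GAS1*, a glucan-remodelling enzyme, had 7.44 and 3.55, *HSP150*, a secreted wall protein, 3.14 and 1.86, and *EXG2*, an exoglucanase, 4.70 and 0.452. *TIR4*, a mannoprotein gene used without oxygen and chosen after its value was seen, had 0.222 and 0.840.

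Genes known to be repressed in rich glucose medium were mostly low in both marks, and some single genes had H3K36me3 without H3K4me3. The 18 glucose-repressed genes analysed, of 29 listed, had median levels of 0.730 and 0.308, at percentiles 5.51 and 8.80, and 11 of them were in the lowest quintile of both, against 12.8% of all genes. *GAL7* had 0.592 and 0.122. *GAL1*, galactokinase, had H3K4me3 of 0.170, at percentile 0.747, and H3K36me3 of 1.47, at percentile 66.7, and its region overlaps 1 other gene. *ICL1*, isocitrate lyase, had 3.76 and 1.89, and *ATO3*, of a family of ammonium and acetate transporters, 6.53 and 2.91, so that the list was not low throughout. General stress genes had percentiles of 11.4 and 24.2, with 17 of 37 in the lowest quintile of both. Meiosis genes, of which 19 of 63 listed were analysed, had 13.1 and 26.2, with *IME1*, the inducer of meiosis, at 2.72 and 0.337. Hexose transporters (8 of 19 listed) had 13.5 and 27.1, and *HXT1*, the transporter used at high glucose, 4.57 and 2.00. *HXT3*, another marker of growth on glucose, had 4.21 and 1.03. Genes under nitrogen catabolite repression had median levels of 2.68 and 0.918, with their activator *GLN3* at 7.90 and 3.68 and *DAL5*, the allantoate permease, at 1.47 and 1.49. The 9 genes of subtelomeric families, of 60 listed, had 3.26 and 11.1, and 2 of them passed the filter. Histone genes, which are made in S phase and come in near-identical copies, had 18.8 and 29.9, with *HHO1*, the linker histone, at 7.21 and 2.43 and *HHF1*, an H4 gene, at 2.99 and 0.401.

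Genes often used as references differed in the marks. *ACT1*, actin, had H3K4me3 of 3.53, at percentile 22.6, and H3K36me3 of 2.27, at percentile 87.5. *PMA1*, the plasma membrane proton pump, had 5.07 and 2.04, at percentiles 54.3 and 83.5. *TUB2*, beta-tubulin, had 6.94 and 3.43, and *TFC1*, a factor of RNA polymerase III, 5.15 and 0.761.

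The shortest genes had less of both marks, and less H3K36me3 in proportion. In the shortest decile of the matched genes past the filter (78 to 519 bp) the median levels were 4.46 and 0.770 and the median ratio was -0.35. In the longest decile (2835 to 14733 bp) they were 5.47 and 1.37, with a ratio of 0.07, and from decile 3 on the median ratio stayed between -0.03 and 0.12. Levels therefore did not rise in proportion to length, and how the signal was computed over each gene is not stated. Of the 458 genes in the shortest decile, 85 were 2-fold or more below the median gene and 28 as far above, where 6.7% and 7.87% of all genes past the filter were. The Spearman correlation between the ratio and length was 0.117 over 4588 genes, and 0.036 with the filter at 50%, so the relation depended on the filter.

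Genes with a close neighbour upstream also had less H3K36me3 for their H3K4me3. Where the next protein-coding gene upstream was under 200 bp away, the median levels were 4.68 and 0.843 and the ratio was -0.32 (303 genes). At 800 to 1600 bp they were 5.07 and 1.42, with a ratio of 0.24 (625 genes). Beyond 1600 bp the ratio was 0.09 (184 genes), so it did not go on with distance. Relative to genes of the same decile of length these ratios were -0.31 and 0.23, so the difference was nearly as large at like length. With the distance to the downstream gene the ratio went from -0.18 under 200 bp to 0.17 at 400 to 800 bp and was 0.05 beyond 1600 bp. The Spearman correlation between the ratio and the distance was 0.200 upstream and 0.184 downstream, and 0.206 and 0.191 without chromosome XI, over genes that share neighbours and a library. The plot of levels by length and spacing shows that median H3K4me3 changed by a smaller fold along these axes than median H3K36me3. By rank, length went with both marks alike, with Spearman correlations of 0.192 for H3K4me3 and 0.178 for H3K36me3. Without chromosome XI these were 0.205 and 0.185. With the upstream distance they were 0.031 and 0.155, and with the downstream distance 0.085 and 0.172.

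**Figure D4:**
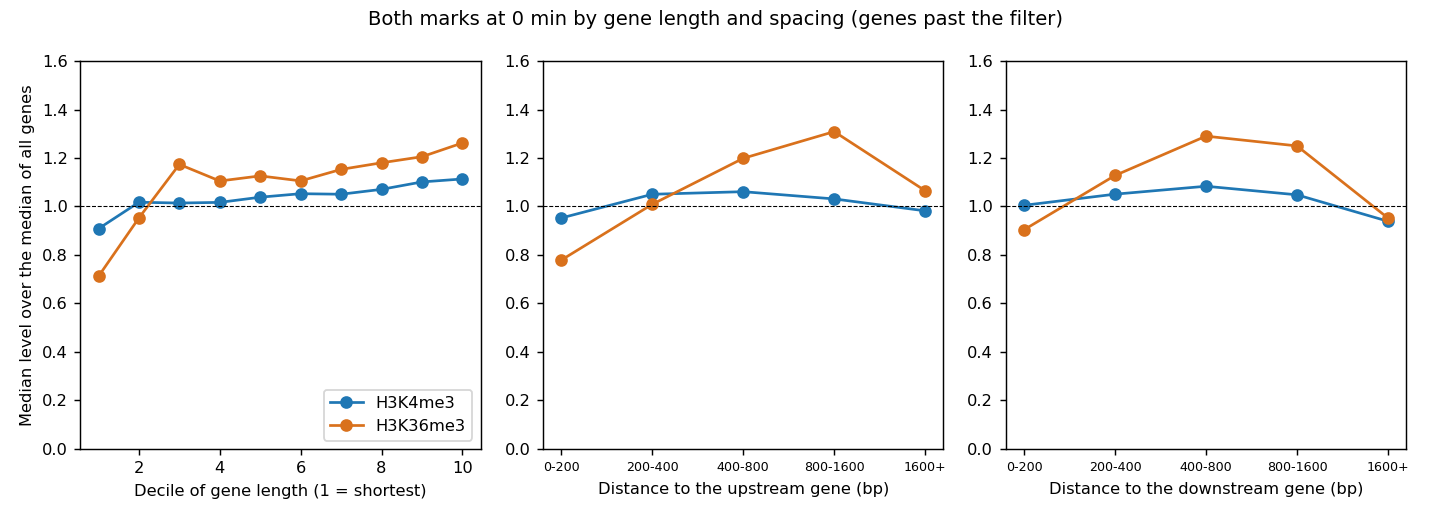
Median level of H3K4me3 (blue) and H3K36me3 (orange) at 0 min, each divided by its median over all genes (y axis, from 0), by decile of gene length (left) and by distance in bp to the upstream (middle) and downstream (right) protein-coding gene, for genes past the filter. H3K36me3 is lowest in the shortest decile and next to the closest upstream genes.

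Neighbouring genes shared the marks weakly when divergent, hardly when tandem and not when convergent. Divergent neighbours start from 1 shared upstream region. Over 1966 genes with such a neighbour, the Spearman correlation with it was 0.184 for H3K4me3 and 0.123 for H3K36me3. Over 1717 tandem pairs it was 0.061 and 0.073, and over 2062 genes with a convergent neighbour -0.083 and -0.064. Each divergent or convergent pair entered from both of its genes, so 1966 and 2062 are not numbers of separate pairs. Tandem pairs entered once. Without chromosome XI the tandem values were 0.040 and 0.050, the divergent 0.172 and 0.146, and the convergent -0.095 and -0.049. Such correlations in 1 library per mark are descriptions. Near the chromosome ends both marks were lower. Of 82 genes within 20000 bp of the outermost annotated base, 64.6% passed the filter, against 90.1% of the others, and 30.5% were in the lowest quintile of both marks, against 12.3%.

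On chromosome XI the marks depended on the strand, and the direction of the difference turned in the middle of the left arm. Left of *PGM1*, a phosphoglucomutase gene that starts at position 203541 in the R64 gene table, the 37 genes on the Watson strand had median levels of 5.46 and 1.62 and the 42 on the Crick strand 4.52 and 0.832. From *PGM1* to the right end, the 92 Watson genes had medians of 1.52 and 0.374, and the 91 Crick genes 3.95 and 1.76. Of the 92, 67 had less than 50% of the median H3K4me3, against 10.8% of Watson genes on the other chromosomes. There H3K4me3 had a median of 4.98 on the Watson and 4.99 on the Crick strand. The 20 min libraries had the same split, with 1.25 and 0.271 for the Watson genes and 3.65 and 1.39 for the Crick genes of that stretch. Of the 206 genes of chromosome XI past the filter, 50 (24.3%) had a ratio 2-fold or more above the median gene, against 4.56% to 12.1% on the other chromosomes. The place of the step was chosen after the values were seen. What lies behind it was not tested. Levels of genes right of the step, such as *UTH1*, *MRP17*, *RPS21A* and *RAD27*, are uncertain, and those of genes left of it may be too.

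**Figure D5:**
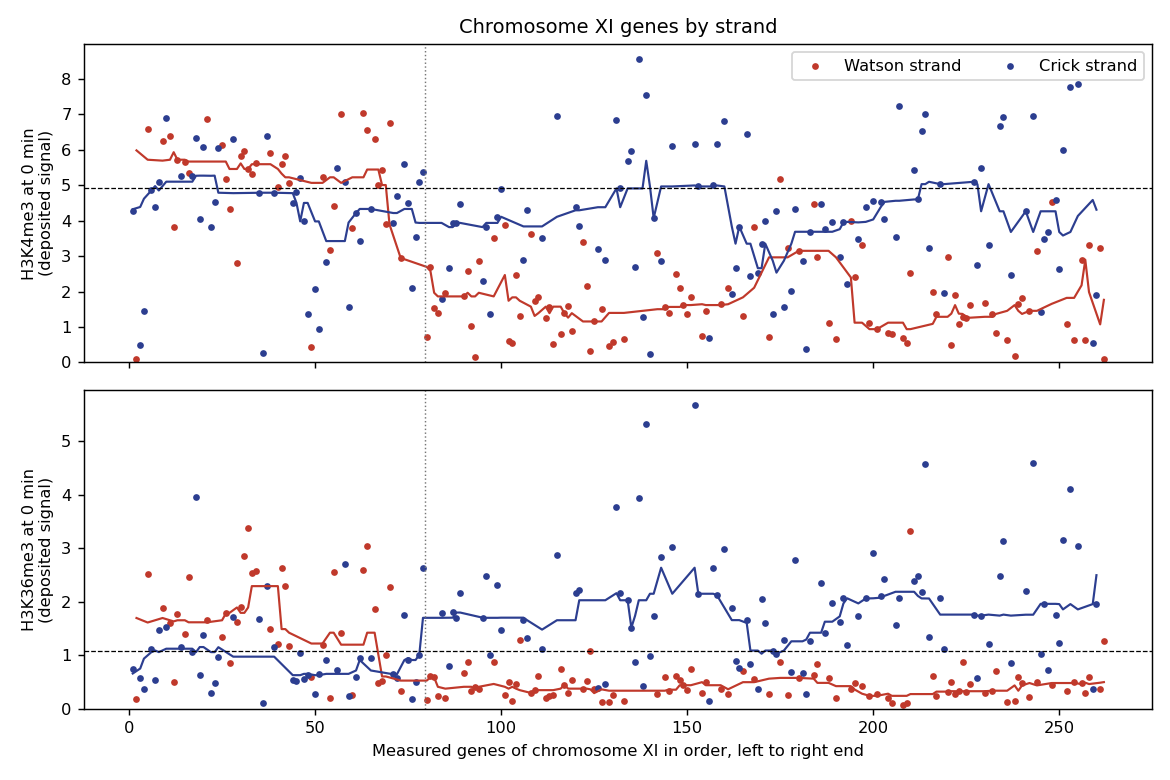
H3K4me3 (top) and H3K36me3 (bottom) at 0 min in deposited signal for the 262 measured genes of chromosome XI in order from the left end, Watson strand in red and Crick strand in blue, with running medians; the dashed line is the median of all genes and the dotted line marks *PGM1*. Right of it the red running medians lie below the dashed lines in both marks, and the blue ones stay above the red ones for H3K36me3.

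The ratio of a gene at 0 min ranked much alike in the libraries of the later times, which are separate libraries from treated cells. At 20 min, the Spearman correlation between the marks was 0.678, and the Spearman correlation between the ratios at 0 and 20 min was 0.828 over 4570 genes past the filter at both times. At 40 and 60 min the Spearman correlation between the ratios was 0.834 and 0.841. Of 357 genes 2-fold above the median gene at 0 min and past the filter at both times, 167 were so at 20 min too, which is 46.8% of them and 63.3% of the 264 at 20 min. Of 291 below, 116 were, which is 39.9% of them and 55.0% of the 211 at 20 min. No gene moved from 1 side to the other by 20 min. Among the 8 genes named for the highest ratio at 0 min, *MET2*, *ALR2* and *RGM1* were at 2.77, 2.67 and 2.50 at 20 min, and *NAB2* was at 0.84, with H3K36me3 of 1.89 and H3K4me3 of 5.76. Of the 8 named for the lowest, *COX14* was at -2.30 and *SDD2* at -2.01, and *BIL1* was nearest to the median gene, at -1.11.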

How the data were processed

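Chromatin immunoprecipitation of H3K4me3 and H3K36me3 was sequenced, and the values used are linear signal per gene as deposited by the authors, 8 columns in all. The tools bedtools, Bowtie2 and SAMtools and the builds ASM294v2 (fission yeast) and sacCer3 appear in the submitters' processing notes. Tool versions and roles, the normalization and the stretch of each gene measured were not given in the sources used here, and the depth is unknown. Headings name no library type, and columns were taken as immunoprecipitated libraries. Of 5222 lines, 3 were blank and 1 named a gene without values. *YPR169W-A* and *YPR170W-B* had identical values.

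The R64 gene table held 5115 of the 5218 systematic names, and gave symbols, positions, length and neighbours, and the other 103 keep their systematic names. Leaving out chromosome XI left in 10 of these whose names place them there. The ratio was log2 of H3K36me3 over H3K4me3, each plus 1% of its median (0.0108 and 0.0491), minus the median over genes past the filter. Percentiles are ranks over all 5218 genes. Among genes in that table that overlap no other, the named genes were the 8 highest and 8 lowest ratios, the 6 highest in each mark, the 6 highest and lowest in both, and of each of the 37 lists the member with the highest mean rank and those with the highest and lowest ratio, overlapping or not, plus strain, marker and reference genes. Members and lists were chosen with earlier results of these data known. Steps were tested on simulated data. Python 3.11.15, pandas 2.3.3, numpy 2.4.6, scipy 1.17.1 and matplotlib 3.10.9 were used.

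Alternatives covered the filter, the pseudocount, overlapping genes, gene length, ranks, the same column sum, the 20 min libraries and, added after seeing the data, chromosome XI and deciles of H3K4me3. With 1 library per mark there is no replicate, and no test was made. No sequence was used.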

Additional observations from a re-analysis of the deposited data

How the results depend on the processing

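No paired analysis was possible because each mark has 1 library at 0 min. The Spearman correlation between the marks ran from 0.630 (filter at 50% of the median) to 0.731 (no filter). The 365 genes 2-fold above the median gene became 571 with no filter, 220 with the filter at 50% and 177 with columns scaled to the same sum. The 311 below became 489, 60 and 597 under these settings and 207 with a pseudocount of 10% of the median. The same sum moves every ratio by -0.24, and the medians of 6 of 37 lists then change sign. The Spearman correlation of the ratio with length was 0.0359 with the filter at 50%.

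Of list medians, Ergosterol synthesis reversed to -0.089 in the 20 min libraries, and with no filter meiosis reversed to 0.17 and the a-specific genes to -0.0075. A difference of percentiles is not centred on the median gene, and it was -2.11 for all genes. By it the sign changed for meiosis (0.307), RNA polymerase II subunits (-8.14), ribosome biogenesis (-2.15) and transcription elongation (-3.16). It also changed for the vacuolar ATPase (-5.03) and mRNA-binding proteins (-0.805). Set against -2.11, however, ribosome biogenesis was level with all genes. The mRNA-binding proteins were above all genes, the same direction as their main ratio. Nuclear pore (-10.5) and secretory coat genes (-5.77), whose main medians were near 0, also changed sign. Within deciles of H3K4me3, meiosis (0.060), RNA polymerase II subunits (-0.17) and the vacuolar ATPase (-0.10) reversed. The cause was not tested. The other 342 values for lists moved by less than 1.5-fold without a change of sign (as percentiles, without a change of sign), apart from medians within 0.1 of the median gene, whose sign was not read. Of 131 named genes, the ratio of *ALD4*, 1.00 in the main setting, turned to -0.095 in the 20 min libraries, and 27 others moved by over 1.5-fold, all in those libraries. Depth is unknown, so how far counting error reaches into genes with low levels cannot be given.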

Other observations

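A list of 47 genes for proteins that bind or export mRNA was drawn up after the values of *NAB2*, *GBP2*, *HEK2* and *YRA1* had been seen, so its counts support nothing by themselves. Its median percentiles were 81.0 in H3K4me3 and 81.1 in H3K36me3, and 20 of the 47 were in the highest quintile of both marks, against 11.9% of all genes. *NPL3*, an SR-like protein of mRNA export, had levels of 7.07 and 5.72, and *GBP2*, another, 7.99 and 6.32. *PUF3*, which binds mRNAs for mitochondrial proteins, had 8.11 and 5.56, and *HEK2* 8.84 and 3.49. Genes of the THO complex, which acts in the same export step, were lower in H3K36me3, with *HPR1* at 4.73 and 0.509 and *THO2* at 5.41 and 1.05.

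The 103 genes that had no match in the R64 gene table had median levels of 1.97 in H3K4me3 and 0.856 in H3K36me3, at percentiles 11.1 and 37.8. They have no position or length here and were kept under their systematic names.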
